A study of Mus musculus with 10 samples.

Results

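Ribosome footprints of mouse embryonic stem cells labelled Dgcr8 knockout were compared with those of Drosha knockout cells, gene by gene. The comparison used the 2 Dgcr8 and the 2 Drosha libraries, 4 of the 10 libraries in the series, which were taken by their labels. The other 6 libraries, 2 each of wild type (WT), Dicer knockout and Ago1 and Ago2 double knockout cells, supplied a common estimate of spread and a reference level. All cells are the E14 line, an embryonic stem cell line known to be male, of 129/Ola background that came from a blastocyst, grown on gelatine with 15% serum and 100 U/mL LIF. Every group, the WT included, was given 0.1 mg/mL cycloheximide for 2 min to halt elongating ribosomes before lysis, and every library received a Drosophila spike-in and 12 cycles of PCR. The labels do not say which exons were removed, whether a knockout line is 1 clone, or whether the duplicates are separate cultures, so the spread behind each p-value is that between these libraries and may be technical.

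Drosha and Dgcr8 form the Microprocessor, the nuclear complex that cuts the hairpin out of a primary microRNA transcript. Drosha is the RNase III enzyme that cleaves, and Dgcr8 is the RNA-binding partner that holds the hairpin. Dicer then trims the hairpin to a mature microRNA, and Argonaute proteins such as Ago1 and Ago2 carry it to target mRNAs, which it represses through its seed, bases 2 to 8. In mouse embryonic stem cells the miR-290 and miR-302 clusters share a seed and promote the G1 to S transition, while let-7 is associated with exit from pluripotency. The Microprocessor also cuts a hairpin in the mRNA of Dgcr8 itself, so the level of Dgcr8 mRNA is known to depend on Drosha.

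The seeds used in the site counts below are shown here because the miR-290, miR-302 and miR-17 families differ in seed by a shift of a single base. Mature sequences are from RefSeq, assembly GRCm38.p6, written 5′ to 3′ with the seed in capitals.
mmu-miR-291a-3p: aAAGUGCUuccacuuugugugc
mmu-miR-294-3p: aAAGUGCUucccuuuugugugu
mmu-miR-295-3p: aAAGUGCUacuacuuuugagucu
mmu-miR-302b-3p: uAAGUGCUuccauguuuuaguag
mmu-miR-17-5p: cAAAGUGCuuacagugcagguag
mmu-miR-93-5p: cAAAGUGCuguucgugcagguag
mmu-let-7a-5p: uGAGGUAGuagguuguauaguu

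The matching site in an mRNA is AGCACTT for the miR-290 and miR-302 seed, GCACTTT for the miR-17 seed and CTACCTC for let-7, and the first of these overlap wherever AGCACTTT occurs. The following sites lie in 3′ UTRs of genes that were higher in the Drosha knockout, with 8 bases on each side, the site in capitals, read 5′ to 3′ on the mRNA strand from GRCm38 with GENCODE M21 gene models. They are shown because these genes carry the results described further on.
Ddhd1, minus strand, chr14:45595361-45595383: aatttaaaAGCACTTtattttat
Irf2bp2, minus strand, chr8:126590733-126590755: ttttaaagAGCACTTggcaaaca
Smyd1, minus strand, chr6:71214102-71214124: tcctacaaAGCACTTtatttgca
Rnf213, plus strand, chr11:119486877-119486899: acaaacaaAGCACTTtccagttc
Tmem92, minus strand, chr11:94778359-94778381: cctacagcAGCACTTctgtgcct
Fbxo11, minus strand, chr17:87991619-87991641: tgtgagctAGCACTTctgcattg
The Ddhd1, Smyd1 and Rnf213 sites shown continue into the miR-17 site, and those shown for Irf2bp2, Tmem92 and Fbxo11 do not. Another AGCACTT site of Irf2bp2, not shown, does continue into it.

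The libraries differed widely in depth. The Dgcr8 libraries held 80850950 and 4955916 counts in genes and the Drosha libraries 1854243 and 2230566, so the deepest was 43.6 times the shallowest, and the other 6 held between 1754710 and 35168638. A floor of 3 counts was worth 0.0371 and 0.605 CPM in the Dgcr8 libraries and 1.62 and 1.34 CPM in the Drosha libraries. Levels are given as CPM, the usual depth-normalised footprint count, after scaling each library by a trimmed mean of M values (TMM). The stem cell markers Pou5f1, Sox2 and Nanog were present in all 4 libraries, with Pou5f1 at 730 and 838 CPM in the Dgcr8 and 696 and 920 CPM in the Drosha libraries. Dgcr8 replicate 1 correlated more closely with WT replicate 1 (r = 0.965 across genes, log2 of CPM plus 1) than with Dgcr8 replicate 2 (r = 0.937), and Drosha replicate 1 more closely with Dicer replicate 1 (0.959) than with Drosha replicate 2 (0.925). The median gene differed by 0.44 (log2) between the 2 Dgcr8 libraries, by 0.51 between the 2 Drosha libraries and by 0.37 between the group means.

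The targeted genes were examined first. Drosha, at chr15:12824815-12935291, had 24.3 and 34.5 CPM in the Drosha knockout against 165 and 270 CPM in the Dgcr8 libraries and 177 and 178 CPM in WT. Its level was 7.36-fold higher in the Dgcr8 libraries (log2 difference 2.88 ± 0.33 SE, edgeR quasi-likelihood adjusted p = 0.00846), which matches the Drosha label. Dgcr8, at chr16:18253948-18289246, was not lower in the libraries that carry its label. It had 145 and 146 CPM in the libraries labelled Dgcr8 knockout, 169 and 198 CPM in the Drosha knockout, and only 32.7 and 33.1 CPM in WT. Both knockout groups thus stood above WT for Dgcr8, by 2.14 (log2, edgeR adjusted p = 0.0153) in the Dgcr8 libraries and by 2.48 (edgeR adjusted p = 0.00277) in the Drosha libraries, and the difference between the 2 groups did not pass (-0.34 ± 0.25, edgeR adjusted p = 0.66). Dicer and Ago libraries also stood above WT for Dgcr8, by 1.09 and 1.07. The Microprocessor cuts Dgcr8 mRNA, as described above, and the part of a lost cut in these levels was not tested. Counts are summed over the whole gene, and a deletion of part of Dgcr8 that leaves other exons in place could go unseen in them. Every direction given here is therefore that of the libraries labelled Dgcr8 knockout.

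Of 10978 genes tested, 55 (0.501%) differed between the groups at an edgeR quasi-likelihood adjusted p under 0.05. In 44 of them (0.401%) footprints were higher in the Drosha knockout, and in 11 (0.1%) they were higher in the Dgcr8 libraries. For all 55 the 2 libraries of one group lay above the 2 of the other, but so they did for 4107 genes (37.4%) of all those tested. The 44 genes were 2.56- to 77.6-fold higher in the Drosha knockout and the 11 were 2.92- to 34.5-fold higher in the Dgcr8 libraries, while the median over all genes was 0.02 (log2). At an unadjusted p under 0.05 there were 1258 genes (11.5%), 747 (6.8%) higher in the Drosha knockout and 511 (4.65%) higher in the Dgcr8 libraries. An exact permutation test on 2 against 2 libraries cannot go below p = 0.333, so the calls rest on a spread that edgeR estimates across genes as well as libraries. With the 4 libraries alone 10 genes were called, 9 of them among the 55.

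The count of calls depended on single libraries. It was 4 without Dgcr8 replicate 1, 19 and 23 without Drosha replicates 1 and 2, 16 and 14 without WT replicates 1 and 2, and 20 and 9 without Dicer replicates 1 and 2. Without Dgcr8 replicate 2 it was 77, of which 33 were higher in the Dgcr8 libraries, and without Ago replicates 1 and 2 it was 63 and 57. Drosha was the only gene called in all 20 alternatives that could test it. None of the 55 changed sign in any alternative run. Their groups did not overlap, so a kept sign was nearly fixed in advance and is no support for a call. Msln and Irf2bp2 lost the call in 1 of 21 alternatives, and Myh9 and Uty in 1 of 20, in each case the fit without Dgcr8 replicate 1. The other 50 lost it in at least 2.

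**Figure D1:**
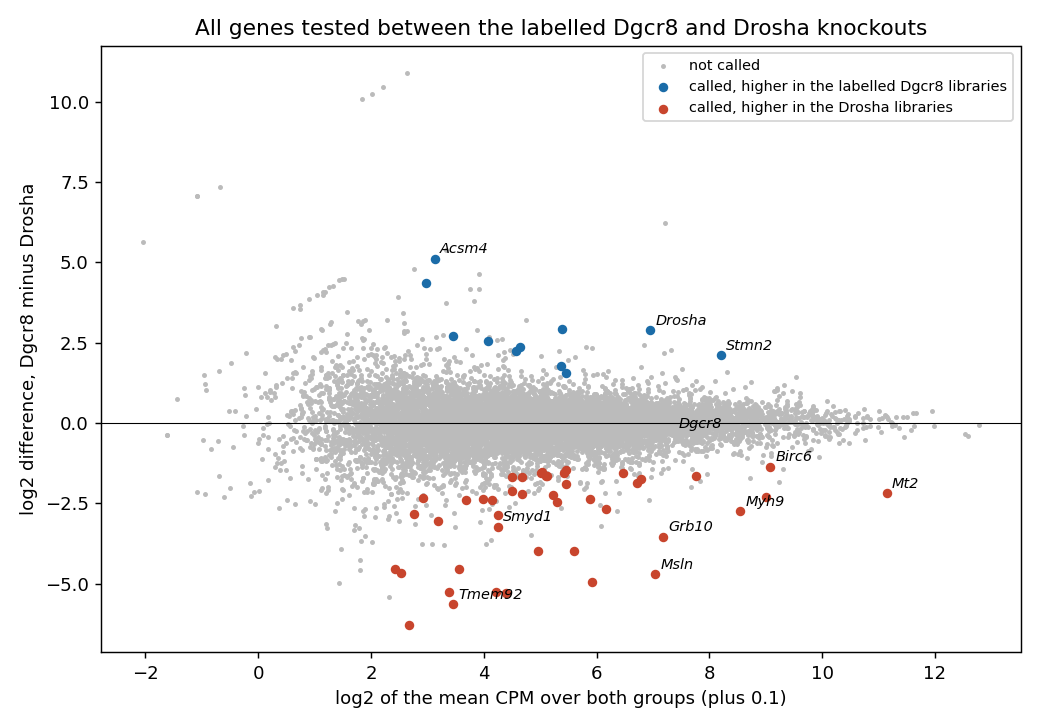
Each point is a gene tested: the horizontal axis is the log2 of its mean CPM over the 4 libraries plus 0.1, the vertical axis the fitted log2 difference, positive where the labelled Dgcr8 libraries are higher. The 44 red genes lie below 0 and the 11 blue genes above it, Dgcr8 lies near 0, and the uncalled grey points near 10 are genes with 0 counts in both Drosha libraries.

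Among genes higher in the Drosha knockout, Msln, Fat2, C1qtnf9 and Hhip were among the largest differences. Msln encodes mesothelin, a cell surface glycoprotein of mesothelial cells, at chr17:25748613-25754378. It had 350 and 154 CPM in the Drosha libraries, 6.51 and 13.8 CPM in the Dgcr8 libraries and 4.42 and 4.11 CPM in WT. The difference was 26-fold (log2 -4.70 ± 0.52, edgeR adjusted p = 0.00846), with the lowest Drosha library far above the highest of the others. Fat2, an atypical cadherin, had 155 and 26.2 CPM in the Drosha libraries against 3.90 and 8.17 CPM in the Dgcr8 libraries (-4.00 ± 0.75, edgeR adjusted p = 0.0494), and its 2 Drosha libraries differed more from each other than most. C1qtnf9, a secreted protein of the C1q and TNF family, was at 25.3 and 20.1 CPM against 1.30 and 0.199 CPM (-4.55 ± 0.87, edgeR adjusted p = 0.0494). Hhip, a membrane protein that binds hedgehog ligands, was at 84.4 and 31.4 CPM against 2.23 and 5.98 CPM (-3.99 ± 0.70, edgeR adjusted p = 0.044). For Fat2 and Hhip the Dgcr8 libraries spanned the WT levels, so it was the Drosha group that stood apart from WT. Without Drosha replicate 1 the differences were -4.00 for Msln, -2.22 for Fat2 and -3.12 for Hhip, without Drosha replicate 2 that of Fat2 was -4.77, without Dgcr8 replicate 1 that of C1qtnf9 was -6.75, and without Dgcr8 replicate 2 that of Hhip was -4.69.

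Smyd1, a histone methyltransferase of heart and skeletal muscle, was raised in both groups but to different levels. It had 0.184 and 0.166 CPM in WT, 2.97 and 4.58 CPM in the Dgcr8 libraries and 40.6 and 27.5 CPM in the Drosha libraries. The Dgcr8 libraries were above WT by 4.34 (log2, edgeR adjusted p = 0.0153) and the Drosha libraries were 9.39-fold higher again (-3.23 ± 0.40, edgeR adjusted p = 0.00846). Smyd1 lost the call with the 4 libraries alone and without Dgcr8 replicate 1. Mt2, which encodes a metallothionein that binds zinc and other metals, had 795 and 835 CPM in the Dgcr8 libraries, 4093 and 3319 CPM in the Drosha libraries and 536 and 475 CPM in WT (-2.19 ± 0.33, edgeR adjusted p = 0.0238). Grin1, the obligate subunit of NMDA glutamate receptors, had 14.9 and 24.1 CPM against 103 and 93.0 CPM (-2.35 ± 0.36, edgeR adjusted p = 0.0238). Cdkn2a, which encodes the cell cycle inhibitor p16 and the p53 regulator p19Arf, had 7.80 and 18.7 CPM against 58.6 and 63.8 CPM (-2.25 ± 0.40, edgeR adjusted p = 0.0437). For all 4 genes both groups were above both WT libraries, with the Drosha group higher. Without Dgcr8 replicate 2 the Cdkn2a difference was -2.97.

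In a further set the Dgcr8 libraries lay below WT. Myh9 encodes the heavy chain of non-muscle myosin IIA and lies at chr15:77760587-77842175. It had 89.2 and 105.8 CPM in the Dgcr8 libraries, 512 and 795 CPM in the Drosha libraries and 455 and 719 CPM in WT. The group difference was 6.71-fold (-2.75 ± 0.34, edgeR adjusted p = 0.00846), and here the Drosha libraries overlapped WT while both Dgcr8 libraries were below it (-2.59 from WT, edgeR adjusted p = 0.0189). Grb10, the imprinted adaptor protein that dampens insulin and growth factor receptors, had 34.8 and 9.76 CPM in the Dgcr8 libraries, 166 and 370 CPM in the Drosha libraries and 472 and 576 CPM in WT (-3.54 ± 0.54, edgeR adjusted p = 0.0238). Both groups were below WT for Grb10, the Dgcr8 group at -4.51 from it (log2, edgeR adjusted p = 0.0153), and the call between the groups was lost without Drosha replicate 2, without Dicer replicate 2 and with the 4 libraries alone. The Grb10 difference was -4.78 without Dgcr8 replicate 1 and -2.83 without Drosha replicate 2.

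Irf2bp2, a nuclear partner of interferon regulatory factor 2, moved in opposite directions from WT. It had 16.5 and 22.5 CPM in the Dgcr8 libraries, 39.7 and 51.5 CPM in WT and 104 and 143 CPM in the Drosha libraries (-2.67 ± 0.32, edgeR adjusted p = 0.00846). Esx1, an X-linked homeobox gene of the placenta, had 3.90 and 5.38 CPM, 10.8 and 11.8 CPM and 24.8 and 41.5 CPM in the same order (-2.87 ± 0.43, edgeR adjusted p = 0.0238). In 17 of the 44 genes both Dgcr8 libraries were below and both Drosha libraries above both WT libraries, an order held by 212 (1.93%) of all genes. The reverse order, Dgcr8 above and Drosha below WT, was held by 5 of the 11 genes and by 186 (1.69%) of all genes. Both sets were chosen on the difference between the groups, and these counts are descriptions.

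**Figure D2:**
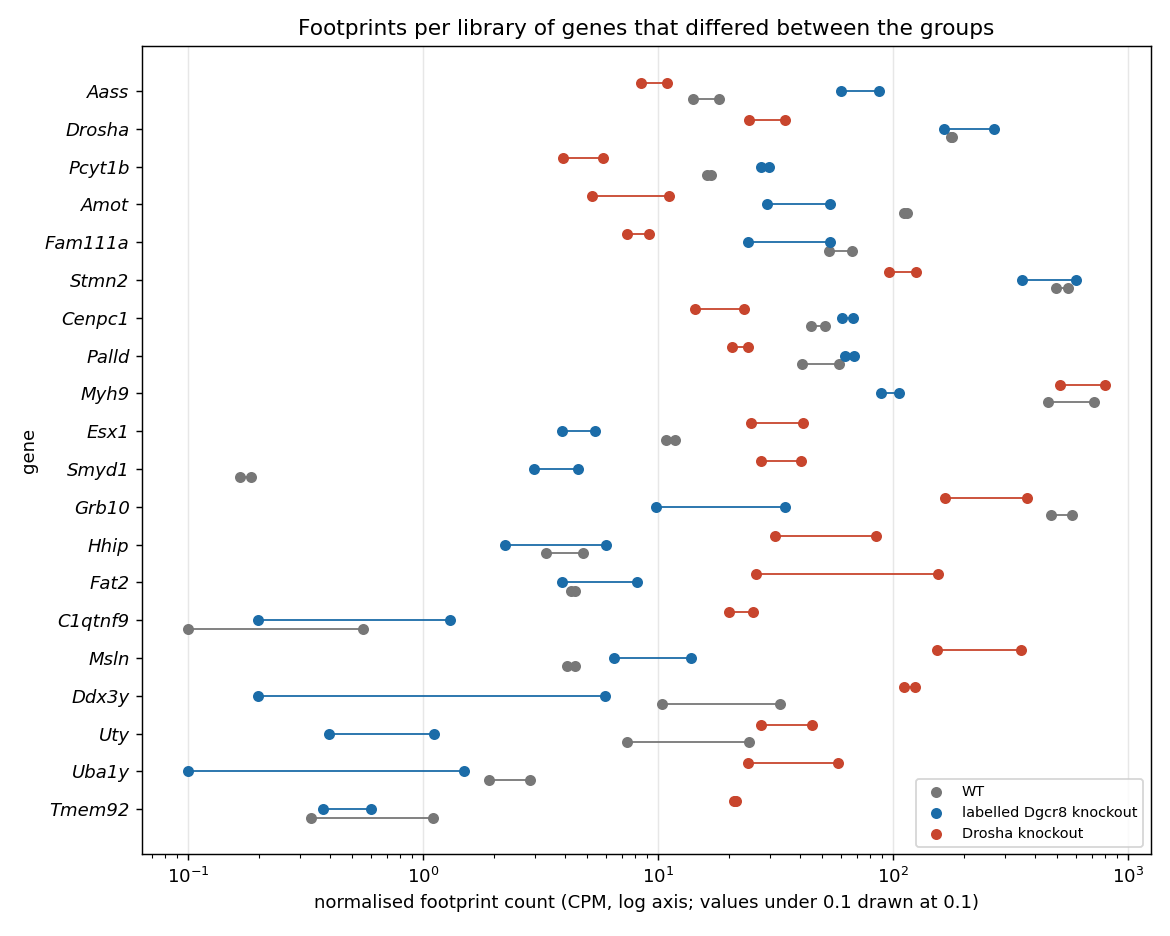
Normalised footprint CPM (log axis) of the genes with the largest called differences, 1 point per library and a line joining the 2 libraries of a group, for WT (grey), the labelled Dgcr8 knockout (blue) and the Drosha knockout (red). Msln, Tmem92 and C1qtnf9 are high only in red, Myh9 and Grb10 are low in blue, and Drosha is low in red at 24.3 and 34.5 CPM.

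For all 11 genes higher in the Dgcr8 libraries, both Drosha libraries were below both WT libraries. The Dgcr8 libraries were both above WT for 5 of them, overlapped WT for 3 and were both below it for 3. Stmn2, a microtubule-destabilising stathmin of neurons, had 600 and 353 CPM in the Dgcr8 libraries, 553 and 491 CPM in WT and 96.0 and 125 CPM in the Drosha libraries. The difference was 4.32-fold (2.11 ± 0.33, edgeR adjusted p = 0.0238), and the Dgcr8 libraries overlapped WT. Fam111a, a protease that aids DNA replication, was similar in form, with 54.1 and 24.1 CPM against 7.39 and 9.17 CPM (2.25 ± 0.43, edgeR adjusted p = 0.0494). Amot, the angiomotin scaffold of the Hippo pathway, was below WT in both groups. It had 115 and 112 CPM in WT, 53.7 and 29.1 CPM in the Dgcr8 libraries and 11.1 and 5.24 CPM in the Drosha libraries (2.38 ± 0.43, edgeR adjusted p = 0.044). The Fam111a difference was 1.53 without Dgcr8 replicate 1, and that of Amot was 2.99 without Drosha replicate 1.

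Aass, which encodes the first enzyme of lysine breakdown, was the called gene that stood highest over WT in the Dgcr8 libraries among those above 20 CPM. It had 60.2 and 87.1 CPM there, 8.44 and 10.9 CPM in the Drosha libraries and 18.2 and 14.0 CPM in WT (2.92 ± 0.50, edgeR adjusted p = 0.0431). Pcyt1b, a phosphatidylcholine synthesis enzyme, had 29.6 and 27.5 CPM against 5.80 and 3.93 CPM (2.56 ± 0.40, edgeR adjusted p = 0.0238). Cenpc1, a centromere protein, had 60.8 and 67.3 CPM against 23.2 and 14.4 CPM (1.77 ± 0.32, edgeR adjusted p = 0.044). Palld, an actin-bundling protein, had 68.0 and 62.2 CPM against 20.6 and 24.03 CPM (1.54 ± 0.30, edgeR adjusted p = 0.0498). For each of these 4 genes, WT lay between the groups.

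The remaining 3 of the 11 had a mean under 20 CPM in the Dgcr8 libraries. Acsm4, a mitochondrial acyl-CoA synthetase, had a mean of 16.8 CPM there and only 2 counts over both Drosha libraries. Its ratio of pooled counts was 30.9 (95% exact interval 8.54 to 255, counting error only), and most of the pooled Dgcr8 counts are from the deeper replicate 1. Hist1h1t, the linker histone of male germ cells, had 17.7 and 11.9 CPM against 3 counts, all in Drosha replicate 1, and a pooled ratio of 24.2 (8.26 to 117). Its fitted difference of 4.35 became 3.25 without Drosha replicate 2, and without Drosha replicate 1 the Drosha group is at 0 counts. Armcx2, an X-linked armadillo repeat gene, had 20.8 and 16.7 CPM against 2.64 and 3.06 CPM (2.72 ± 0.51, edgeR adjusted p = 0.0494). Hist1h1t and Armcx2 reads can be shared with related gene copies, and how the authors counted such reads is not given in the sources used here.

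The called genes were then followed in libraries of neither group. Dicer, Ago and WT share no library with the Dgcr8 or Drosha group, although all enter the shared estimate of spread. Of the 44 genes higher in the Drosha knockout, 43 were above WT in the Dicer knockout, where 49.8% of all genes were, and 39 in the Ago1 and Ago2 knockout, where 52.6% were. At an edgeR adjusted p under 0.05, 34 of the 44 were called above WT in the Dicer knockout (7.35% of all genes) and 16 in the Ago knockout (1.98%). None was called below WT in either, where 3.76% and 0.902% of all genes were. Their median difference from WT was 2.42 (log2) in the Dicer and 1.29 in the Ago libraries, against -0.003 and 0.04 over all genes. Grb10 was the gene not above WT in the Dicer libraries. Of the 44, 6 lie on chromosome 15 and 3 on chromosome Y. The median gene of both chromosomes was also above the WT mean in the Dicer and Ago libraries. On chromosome 15 it was at 0.40 and 0.23 (log2) in Dicer and at 0.45 and 0.42 in Ago. The part of such chromosome-wide shifts in these counts was not tested. The 11 genes higher in the Dgcr8 libraries lay on both sides of WT: 8 were below WT in each of the Dicer and Ago libraries, with 4 called below WT in the first (Amot, Armcx2, Fam111a and Hist1h1t) and 1 in the second (Amot). Acsm4 was called above WT in both.

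Single genes show the range. Msln had 496 and 367 CPM in the Dicer libraries and 150 and 89.8 CPM in the Ago libraries, above its Drosha levels in the former and below them in the latter. Smyd1 had 32.4 and 38.6 CPM in Dicer and 25.5 and 20.4 CPM in Ago. Parva, which encodes the focal adhesion protein parvin alpha, separated them. It had 11.3 and 6.38 CPM in the Dgcr8 libraries, 37.5 and 46.3 CPM in Drosha, 84.4 and 80.5 CPM in Dicer, and only 7.43 and 7.201 CPM in Ago, below its WT level of 10.8 and 12.1 CPM. For Msln and Smyd1, then, the labelled Dgcr8 libraries were the lowest of the 4 knockout groups, whereas for Parva they overlapped the Ago libraries.

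**Figure D3:**
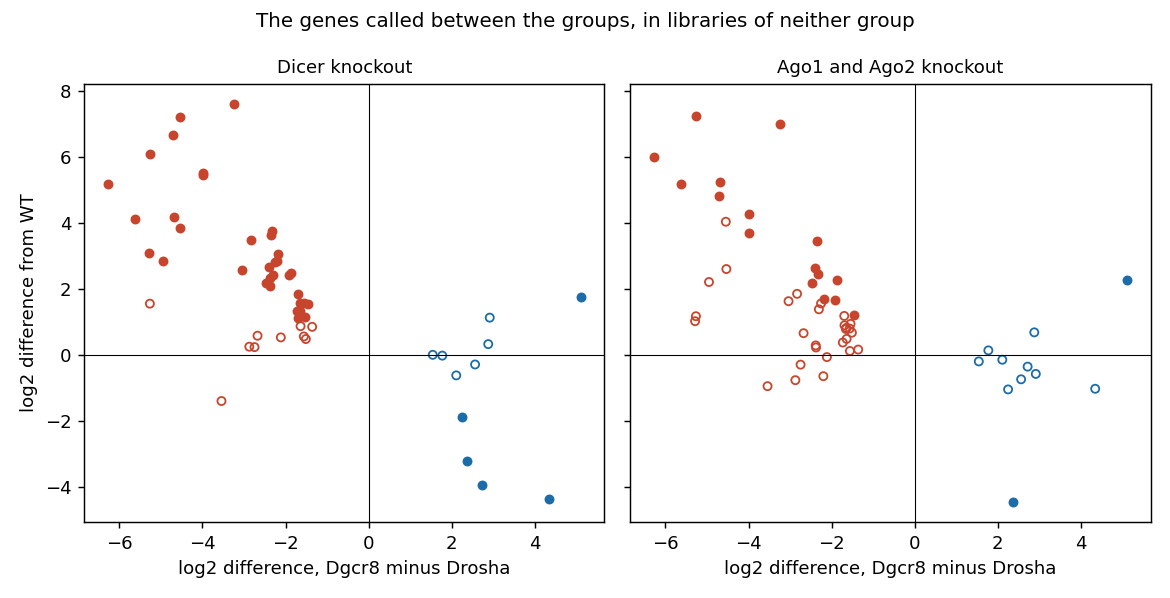
For each of the 55 called genes, the horizontal axis is the log2 difference between the labelled Dgcr8 and Drosha libraries and the vertical axis its log2 difference from WT in the Dicer (left) or the Ago1 and Ago2 (right) knockout; filled points passed the edgeR test against WT. Of the 44 red genes, 43 on the left and 39 on the right lie above 0, while the 11 blue genes lie on both sides.

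Several differences followed chromosomes and not single genes. On chromosome 15, where 452 genes were tested, the median difference was -0.38 (log2), and 77.9% of genes were lower in the Dgcr8 libraries. Relative to the WT mean the chromosome 15 median was 0.08 and -0.05 in the 2 Dgcr8 libraries, 0.37 and 0.42 in the Drosha libraries, 0.40 and 0.23 in the Dicer libraries and 0.45 and 0.42 in the Ago libraries. The Dgcr8 libraries lay near WT over this chromosome, and all 6 libraries of the other knockouts were higher. Of the 44 genes higher in the Drosha knockout, 6 lie on chromosome 15 (Myh9, Card10, Gsdmd, Sh3bp1, Asb8 and Tfcp2), as does Drosha itself, which moved the other way. The shift was not uniform along the chromosome: the 36 genes before 20 Mb, where Drosha lies, had a median of 0.07, and the 416 genes beyond it, where the other 6 lie, had -0.40. Before 20 Mb the 2 Drosha libraries disagreed, with replicate 1 at -0.25 and replicate 2 at 0.30 relative to the WT mean. The Dgcr8 libraries were at 0.29 and 0.09 there. Chromosome 1 was below the WT mean in all 4 libraries, by 0.38 to 0.51, and its median difference between the groups was -0.009. The Dicer libraries (-0.341 and -0.374) and the Ago libraries (-0.421 and -0.475) were below the WT mean there too.

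The distal end of chromosome 17 stood apart in the Dgcr8 libraries. Beyond 60 Mb, from 63057452 to 94750019 in GRCm38, 85 of 91 genes were lower in the Dgcr8 than in the Drosha libraries, with a median of -0.90 (1.86-fold). Relative to the WT mean this segment was at -0.78 and -0.94 in the Dgcr8 libraries, at 0.03 and 0.16 in the Drosha libraries and within 0.14 of 0 in the Dicer and Ago libraries. Upstream of 60 Mb the same chromosome had a median of 0.01 over 466 genes. Of the 44 genes, 6 lie in the distal segment: Birc6, an inhibitor of apoptosis, Strn, a striatin scaffold, Mta3, a subunit of the NuRD complex, Fbxo11, a ubiquitin ligase component, Lclat1 and Ppp1r21. Birc6 had 287 and 319 CPM in the Dgcr8 libraries, 464 and 539 CPM in WT and 701 and 852 CPM in the Drosha libraries (-1.36 ± 0.26, edgeR adjusted p = 0.0494). Fbxo11 had 24.9 and 18.1 CPM, 57.6 and 49.8 CPM, and 65.9 and 62.0 CPM in the same order (-1.56 ± 0.29, edgeR adjusted p = 0.0446). DNA copy number was not measured in these files, and its part in these differences was not tested.

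A smaller segment of chromosome 5 moved the opposite way. Between 70 and 90 Mb, 44 genes had a median of 0.80, with -0.49 and -0.66 relative to WT in the Drosha libraries and 0.23 and 0.19 in the Dgcr8 libraries, and Cenpc1 lies there. On chromosome 12 beyond 90 Mb (105 genes) the 2 Drosha libraries disagreed, replicate 1 at -0.92 and replicate 2 at 0.09 relative to WT. Dicer1, which encodes Dicer, lies in that segment, and its 74.4 and 170 CPM in Drosha replicates 1 and 2 against 160 and 168 CPM in the Dgcr8 libraries show the same split (0.43 ± 0.35, edgeR adjusted p = 0.695). Of 244 windows of 10 Mb with at least 10 genes, 222 had a median within 0.3 of 0, 3 were at or below -0.5, all on distal chromosome 17, and 4 were at or above 0.5.

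Of 5 Y-linked genes tested, 3 were called, all lower in the Dgcr8 libraries. Ddx3y, an RNA helicase, had 5.95 and 0.199 CPM in the Dgcr8 libraries, 32.9 and 10.4 CPM in WT and 124 and 111 CPM in the Drosha libraries (-4.95 ± 0.80, edgeR adjusted p = 0.0333). Uty, a relative of histone demethylases, had 1.11 and 0.399 CPM, 24.4 and 7.38 CPM, and 45.4 and 27.5 CPM in the same order (-5.27 ± 0.69, edgeR adjusted p = 0.0107). Uba1y, a ubiquitin-activating enzyme, had 1.49 and 0 CPM, 2.86 and 1.91 CPM, and 58.0 and 24.03 CPM (-5.29 ± 0.95, edgeR adjusted p = 0.044). Eif2s3y, a subunit of initiation factor 2, went the same way with 7.81 and 0 CPM against 68.6 and 37.1 CPM but did not pass (edgeR adjusted p = 0.0996). In each of these 4 genes the order was Dgcr8, then WT, then Drosha with no overlap, although the WT replicates of Uty and Ddx3y differed widely from each other. Without Dgcr8 replicate 1 the differences of Uty and Ddx3y were -6.47 and -9.13, and the Dgcr8 group is at 0 for Uba1y. Without Dgcr8 replicate 2 that of Ddx3y was -4.30, and without Drosha replicate 1 that of Uba1y was -4.55. The fifth, a predicted gene, differed by -0.58 and did not pass. Ddx3x, the X-linked partner of Ddx3y, was at 905 and 1199 CPM against 770 and 1236 CPM (0.07, edgeR adjusted p = 0.962). Without the genes of chromosomes 15 and Y and of chromosome 17 beyond 60 Mb, 20 genes were called, 16 higher in the Drosha knockout and 4 higher in the Dgcr8 libraries, and these 20 were all among the 55.

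**Figure D4:**
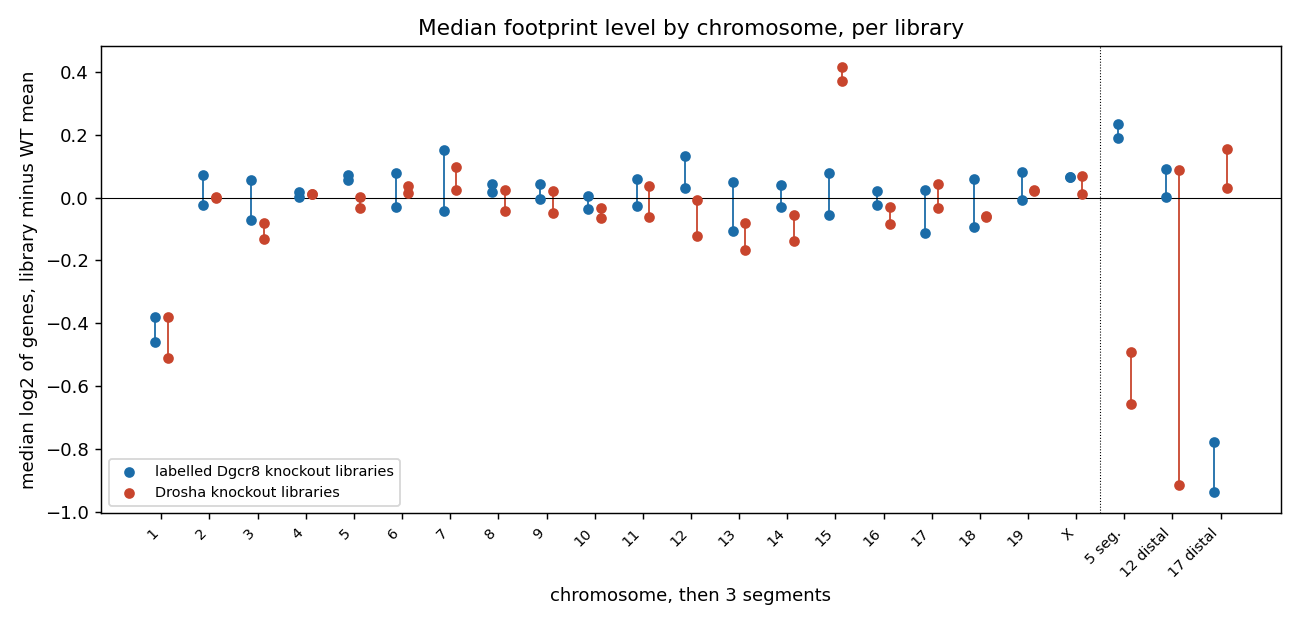
Median log2 level of the genes of each chromosome relative to the WT mean, 1 point per library, for the labelled Dgcr8 (blue) and Drosha (red) libraries, with the segments of chromosomes 5, 12 and 17 at the right. Chromosome 15 is raised in both red libraries (0.37 and 0.42), chromosome 1 is low in all 4, distal chromosome 17 is low in both blue libraries (-0.78 and -0.94), and distal chromosome 12 is low in 1 red library.

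Gene lists for pathways of the stem cell and of the microRNA system were described next by their counts and medians, beside the background of 0.501% called and a median of 0.02 over all genes. In the list of Microprocessor partners and primary microRNA processing, 16 genes were tested and Drosha alone was called. The helicases Ddx5 and Ddx17, which accompany the complex, had differences of 0.23 and -0.28 (edgeR adjusted p = 0.806 and 0.738). Of 16 genes of export, dicing and silencing none was called, at a median of 0.10. Tnrc6b, a scaffold that links Argonautes to deadenylases, had 61.0 and 65.3 CPM in the Dgcr8 libraries, 147 and 122 CPM in the Drosha libraries and 47.0 and 41.7 CPM in WT, and did not pass (-1.09 ± 0.25, edgeR adjusted p = 0.0947). Ago1 had 24.9 and 38.2 CPM against 72.8 and 60.7 CPM with WT at 14.7 and 14.3 CPM (-1.09 ± 0.41, edgeR adjusted p = 0.332), and Ago2 107 and 99.8 CPM against 143 and 202 CPM (-0.74 ± 0.35, edgeR adjusted p = 0.461). For Tnrc6b, Ago1 and Ago2 the groups did not overlap and the Drosha libraries were higher, but so were they for 18.5% of all genes. Tnrc6b and Ago2 lie on chromosome 15, where this held for 40% of genes.

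Among 21 genes listed as targets of miR-290 and miR-302, 1 was called and 2 had a difference above 0, with a median of -0.76. Ddhd1, a phospholipase A1, had 10.97 and 10.2 CPM in the Dgcr8 libraries, 12.2 and 11.3 CPM in WT and 30.6 and 38.0 CPM in the Drosha libraries (-1.70 ± 0.31, edgeR adjusted p = 0.044). The Dgcr8 libraries were thus just below WT and the Drosha libraries well above it. Its 3′ UTR holds 3 AGCACTT sites, including the one printed above, which lies 108 bases past the stop codon. Dazap2 (-1.60 ± 0.47, edgeR adjusted p = 0.187), Casp2 (-1.20 ± 0.44, edgeR adjusted p = 0.319) and the Nodal inhibitor Lefty1 (-2.39 ± 1.07, edgeR adjusted p = 0.425) had values on the same side and did not pass. Dazap2 lies on chromosome 15, whose median difference was -0.38. Lefty1 varied strongly within both groups, at 10.03 and 69.5 CPM in the Dgcr8 and 329 and 77.8 CPM in the Drosha libraries.

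Over all genes with a 3′ UTR the shift with seed sites was small. The 8991 genes with no AGCACTT had a median difference of 0.04, the 1567 with 1 site -0.05 and the 361 with 2 or more -0.16. For the last, the median from WT was 0.05 in the Dgcr8 and 0.19 in the Drosha libraries. With the miR-17 site GCACTTT the 9339 genes without a site were at 0.04 and the 243 with 2 or more at -0.23, where the Dgcr8 libraries were 0.09 and the Drosha libraries 0.27 above WT. With the let-7 site CTACCTC the medians were 0.02 for none and -0.03 for 2 or more sites (144 genes). These medians cover the mRNA strand only, and no test was run on them. Among the 44 genes higher in the Drosha knockout, 14 held AGCACTT, 13 held GCACTTT and 6 held CTACCTC. Of all 10919 genes with a 3′ UTR, 17.7%, 14.5% and 10.6% held them. Of the 11 genes higher in the Dgcr8 libraries, 1, 1 and 2 held them. AGCACTT was held by 3.29%, 14.2% and 35.5% of genes, from the shortest to the longest 3′ UTRs (bounds 682 and 1799 bases). In that order, 0%, 1.35% and 0.542% of holders were called higher in the Drosha knockout, against 0.341%, 0.352% and 0.298% of other genes. Of the 14, Asb8 and Tfcp2 lie on chromosome 15 and Strn and Fbxo11 on distal chromosome 17. The part of 3′ UTR length and of these chromosomes in the counts and medians was not tested.

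Markers of primitive and visceral endoderm, cells that line the blastocyst cavity and can arise in serum cultures, gave the list with the highest median. It was 1.97 over 17 tested genes of 25 listed, yet none was called. A difference above 0 was found for 15 of the 17. In 6 both Dgcr8 libraries were above both Drosha libraries and in 1 the reverse, against 18.9% and 18.5% of all genes. In the members described here, all higher in the Dgcr8 group, the 2 Dgcr8 libraries disagreed. Cubn, the endocytic receptor cubilin, had 1052 and 980.5 CPM in WT, 578 CPM in Dgcr8 replicate 1, 11.4 CPM in Dgcr8 replicate 2 and 0.528 and 6.99 CPM in the Drosha libraries (6.22 ± 1.64, edgeR adjusted p = 0.138). Pdgfra, a growth factor receptor of primitive endoderm, had 93.2 and 3.79 CPM in the Dgcr8 and 3.69 and 6.99 CPM in the Drosha libraries with 148 and 139 CPM in WT, so Dgcr8 replicate 2 fell among the Drosha libraries. Gpx3, a secreted glutathione peroxidase, had 21.4 and 4.38 CPM against 2 counts over both Drosha libraries. Its ratio of pooled counts, nearly all from Dgcr8 replicate 1, was 42.7 (exact interval 11.8 to 353), while the fitted log2 difference was 4.77 (edgeR adjusted p = 0.082), 3.17 without Dgcr8 replicate 1 (edgeR adjusted p = 0.282) and 5.46 without replicate 2 (edgeR adjusted p = 0.0251). Dkk1, a Wnt inhibitor and a listed miR-290 target, had 13.6 and 0.399 CPM and 0 counts in the Drosha libraries, and did not pass (edgeR adjusted p = 0.345). Dgcr8 replicate 2 lies below what 3 counts are worth in either Drosha library (1.62 and 1.34 CPM), so no fold is given. The summed level of the list was 5562 and 3170 CPM in the Dgcr8 libraries, 3808 and 3278 CPM in the Drosha libraries and 6293 and 5127 CPM in WT. In bulk libraries fewer endoderm cells and fewer footprints per cell cannot be told apart.

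Some of the basement membrane genes that such cells secrete showed the same split. Lama1, a laminin chain, had 1920 CPM in Dgcr8 replicate 1 but 246 CPM in replicate 2, against 389 and 411 CPM in the Drosha libraries and 3684 and 4312 CPM in WT. Col4a1 had 900 and 71.7 CPM against 80.7 and 148 CPM, and Col4a2, its divergent neighbour, 495 and 31.5 CPM against 44.3 and 64.7 CPM. For all 3 genes the groups overlapped, because Dgcr8 replicate 2 was below both Drosha libraries while replicate 1 lay nearer to WT. Lama1 lies in the distal segment of chromosome 17. None of 18 members was called, at a median of 0.31, and 11 had a difference above 0. Other members did not split in this way. Nid1 had 1097 and 1102 CPM and Hspg2 2350 and 2407 CPM in the Dgcr8 libraries, with differences of -0.36 and -0.43.

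The trophectoderm and epithelial lists had medians below 0, that is higher in the Drosha knockout, without a call. Of 14 trophectoderm genes listed, only 6 were tested, and Cdx2, Eomes, Elf5 and Gata3 were among those absent from the data. All 6 had a difference below 0 (median -1.21). Krt18 and Krt8, the simple keratins that pair into filaments, lay at 50.4 and 51.4 CPM and at 36.3 and 24.5 CPM in the Dgcr8 libraries, overlapping or beside WT, and at 128 and 119 CPM and 88.6 and 71.6 CPM in the Drosha libraries. Their differences were -1.28 ± 0.28 (edgeR adjusted p = 0.0781) and -1.39 ± 0.34 (edgeR adjusted p = 0.109), and both genes lie on chromosome 15, whose median beyond 20 Mb, where they lie, was -0.40. Of 14 genes of epithelial junctions, 1 had a difference above 0 (median -0.76). Cldn7, a tight junction claudin, had 20.8 and 23.9 CPM in the Dgcr8, 113 and 66.0 CPM in the Drosha and 42.6 and 66.5 CPM in the WT libraries (-2.002 ± 0.40, edgeR adjusted p = 0.0557). Epcam, an epithelial adhesion molecule, was at 242 and 281 CPM against 1337 and 537 CPM (-1.84 ± 0.47, edgeR adjusted p = 0.125) and lies in the distal segment of chromosome 17 that was low in the Dgcr8 libraries.

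**Figure D5:**
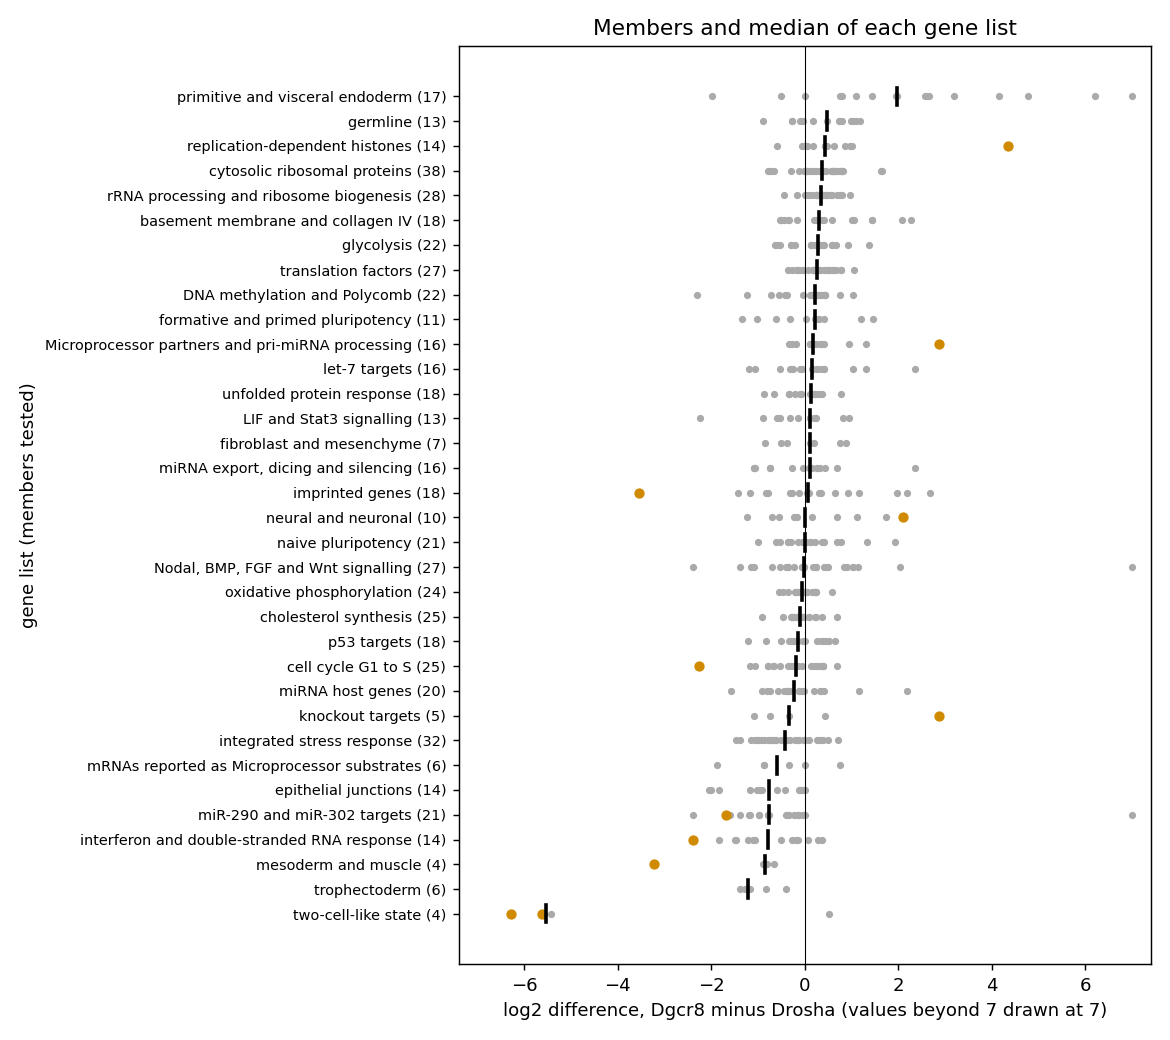
Each row is a gene list with the number of members tested; grey points are members that did not pass, orange points are called members, and the black bar is the median log2 difference, positive where the labelled Dgcr8 libraries are higher. The endoderm list has the highest median (1.97) with no orange point, and the 2-cell-like list the lowest (-5.53).

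The 2-cell-like list had the lowest median, -5.53 over 4 tested genes of 12 listed, and 2 were called, both higher in the Drosha knockout. These genes mark a rare, transient state of stem cell cultures that resembles the early cleavage embryo. Tmem92, a membrane protein, had 0.376 and 0.598 CPM in the Dgcr8 libraries, 1.11 and 0.332 CPM in WT and 21.1 and 21.4 CPM in the Drosha libraries (49.5-fold, -5.63 ± 0.84, edgeR adjusted p = 0.0238). The other called member is a predicted gene with 0.182 and 0 CPM against 7.91 and 17.04 CPM in the Drosha libraries. Zscan4d, a telomere-linked zinc finger gene of a multicopy family, had 0.182 and 0.399 CPM against 4.22 and 14.8 CPM (-5.42 ± 1.16, edgeR adjusted p = 0.0688). The fourth member, the initiation factor gene Eif1a, had 53.7 and 67.9 CPM against 33.2 and 51.6 CPM (0.51 ± 0.44, edgeR adjusted p = 0.709) and made up most of the summed level of the list, which was 54.5 and 68.9 CPM in the Dgcr8 and 66.5 and 104.8 CPM in the Drosha libraries. In the Ago libraries Tmem92 reached 38.3 and 9.66 CPM and in the Dicer libraries 14.0 and 8.28 CPM, so the labelled Dgcr8 libraries alone among the knockouts stayed in the WT range.

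Of 24 genes listed for the interferon and double-stranded RNA response 14 were tested, 1 was called and the median was -0.78. The list was not uniform, and 3 of the 14 had a difference above 0. For 2 both Dgcr8 libraries were above both Drosha libraries and for 9 the reverse, against 18.9% and 18.5% of all genes. Oas2, an oligoadenylate synthetase that senses double-stranded RNA, had 4.10 and 3.98 CPM in the Dgcr8 libraries, 4.61 and 7.09 CPM in WT and 20.1 and 22.7 CPM in the Drosha libraries (-2.40 ± 0.41, edgeR adjusted p = 0.0431). Eif2ak2, the kinase PKR, had 16.2 and 10.96 CPM against 40.6 and 35.8 CPM (-1.47 ± 0.32, edgeR adjusted p = 0.0719) and lies in distal chromosome 17. Parp9 and Parp14, partners in interferon signalling, differed by -1.84 ± 0.49 and -1.48 ± 0.42 (edgeR adjusted p = 0.139 and 0.155), and their Dgcr8 libraries stayed below 16 CPM while the Drosha libraries reached 23.2 and 44.8 CPM. Rnf213, an interferon-inducible ubiquitin ligase outside this list, was called, with 138 and 210 CPM in the Dgcr8 libraries and 740 and 978 CPM in the Drosha libraries (-2.31 ± 0.38, edgeR adjusted p = 0.0376).

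None of 21 naive pluripotency genes was called, at a median of -0.001. Tcl1, a co-activator of Akt, came nearest, with 134 and 114 CPM in the Dgcr8 libraries and 51.2 and 48.0 CPM in the Drosha libraries (1.32 ± 0.26, edgeR adjusted p = 0.0541), and it lies on distal chromosome 12. Nanog differed by -0.03 ± 0.28 and Pou5f1 by -0.04 ± 0.28. In the list of signalling genes Bmp4, a BMP ligand, had 60.4 and 96.8 CPM against 25.3 and 13.1 CPM with WT at 103 and 77.3 CPM (2.04 ± 0.40, edgeR adjusted p = 0.0554), and none of 27 was called.

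Lists of growth and housekeeping genes had small medians. The medians were 0.36 for 38 cytosolic ribosomal proteins, 0.36 for 28 genes of ribosomal RNA processing and 0.27 for 27 translation factors, with none called. In the last, 11 genes were higher in both Dgcr8 libraries than in both Drosha libraries and none the reverse, against 18.9% and 18.5% of all genes. The 32 genes of the integrated stress response had a median of -0.41 and none was called, the 22 glycolysis genes 0.28 and none, and the 24 oxidative phosphorylation genes -0.05 and none. Among 20 genes that host microRNAs in their introns or transcripts none was called. Pank3, host of miR-103, was the nearest, with 12.5 and 11.4 CPM against 42.7 and 29.3 CPM (-1.59 ± 0.33, edgeR adjusted p = 0.0626). Let-7 targets had a median of 0.16 over 16 genes with none called, and Lin28a, the RNA-binding inhibitor of let-7 maturation, had 61.7 and 127 CPM in the Dgcr8, 14.2 and 22.3 CPM in the Drosha and 71.7 and 98.1 CPM in the WT libraries (2.35 ± 0.62, edgeR adjusted p = 0.138).

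Against WT, the same shared fit called 8 genes in the Dgcr8 libraries (6 higher, 0.0547%, and 2 lower, 0.0182%) and 378 in the Drosha libraries (272 higher, 2.48%, and 106 lower, 0.966%). These comparisons share the WT libraries. The 2 genes below WT in the Dgcr8 libraries were Myh9 and Grb10, both described above.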

How the data were processed

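The values are counts of ribosome-protected fragments per gene, deposited by the authors as 1 table of 11011 genes in 10 libraries with no scaling. Per the labels' protocols, lysates were digested with RNase I, monosomes were purified on columns, and ribosomal RNA was depleted. Trimmomatic, Bowtie2 and the builds mm10, GRCm38, dm6 and BDGP6 are named, with no role or order, per the submitters' processing notes. The counting tool, strand setting and treatment of reads that fit several places are not given in the sources used here, and spike-in counts were not used here. Columns were matched to samples by the column number in the labels. All 11011 gene identifiers were found in GENCODE M21 (GRCm38), and 16 symbols that a spreadsheet had turned into dates were replaced from it.

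edgeR 4.0.16 in R 4.3.3 fitted all 5 groups of 2 libraries (TMM scaling, filterByExpr, which removed 33 genes, quasi-likelihood test, 5 residual degrees of freedom, Benjamini-Hochberg over 10978 genes, threshold 0.05). Log2 differences are Dgcr8 minus Drosha, and a standard error is the difference divided by the square root of F. Sites were counted in the longest annotated 3′ UTR of a gene. Named genes were the 5 targeted genes, the 12 largest called differences per direction whose higher group averaged 20 CPM or more and whose libraries did not overlap, plus up to 4 members of each of 34 lists by adjusted p, leaving out predicted genes. Other genes named, among them stem cell markers, neighbours on a chromosome, X-linked partners and further called genes, were picked with their values in view. The comparison, its genes and the lists were chosen with earlier results of these data known. Totals ranged from 1754710 to 80850950 counts, so low genes are least precise in the Drosha libraries. Alternatives covered scaling, filters, thinning, DESeq2 1.42.0, limma-voom (limma 3.58.1), a replicate block with and without the Ago libraries, each library left out, and a fit without chromosome 15, Y and distal 17 genes; this last fit and the block without Ago were chosen after seeing the data.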

Additional observations from a re-analysis of the deposited data

Results flagged for a closer look

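In 22 of the 55 called genes the labelled Dgcr8 and the Drosha libraries lay on opposite sides of both WT libraries. In 17 of them the Dgcr8 libraries were below and the Drosha libraries above WT, with log2 differences (Dgcr8 minus Drosha) of Irf2bp2 -2.67, Uty -5.27, Esx1 -2.87, Ddx3y -4.95, Oas2 -2.40, Gsdmd -2.38, Strn -1.64, Tfcp2 -1.64, Plekhh1 -1.73, Ccdc136 -1.69, Uba1y -5.29, Ddhd1 -1.70, B4galnt1 -2.38, Fbxo11 -1.56, Lclat1 -2.11, Ppp1r21 -1.51 and Birc6 -1.36. In the other 5 the order was the reverse, with differences of Acsm4 5.11, Pcyt1b 2.56, Aass 2.92, Cenpc1 1.77 and Palld 1.54. The difference between the groups is the test already described, and no separate test of the opposite movement from WT was run. Of the first set, Strn, Fbxo11, Lclat1, Ppp1r21 and Birc6 lie on distal chromosome 17, Tfcp2 and Gsdmd on chromosome 15 and Uty, Ddx3y and Uba1y on chromosome Y.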

How the results depend on the processing

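The 55 calls (11 higher in the Dgcr8 and 44 in the Drosha libraries) became 10 (2 and 8) with the 4 libraries alone, 27 (2 and 25) with limma-voom, 310 (84 and 226) with DESeq2 and 20 (4 and 16) without the genes of chromosomes 15, Y and distal 17, an alternative added after seeing the data that left 39 of the 55 to test. Other scalings, filters and thinning gave 45 to 64. With each library left out in turn the calls ranged from 4 to 77, those higher in the Dgcr8 libraries from 1 to 33 and those higher in the Drosha libraries from 3 to 51; the cause of these changes was not tested, beyond the smaller number of libraries in each such fit. A lone library left in a group was assumed to vary like the others. Replicate numbers are shared between groups. The deviations of same-numbered libraries had a correlation across genes of 0.061 for Dgcr8 with Drosha and of 0.109 to 0.287 for the other pairs of groups. All were positive. Replicate 1 of WT, Dgcr8, Drosha and Dicer carry neighbouring column numbers, as do replicate 2 of these groups together with Ago replicate 1. The labels name no batch, so the main fit had no block. Whether libraries with neighbouring numbers were prepared together was not tested. With the replicate number as a block there were 175 calls, 41 higher in the Dgcr8 and 134 in the Drosha libraries, and all 55 were among them. Genes described above as not passing that this block calls include Krt18, Krt8, Epcam, Cldn7, Eif2ak2, Zscan4d, Tnrc6b, Pank3, Dazap2, Bmp4 and Tcl1. The Ago columns carry numbers 2 and 3 in the table but 1 and 2 in the titles, which were followed; the block without the Ago libraries, added after seeing the data, gave 207 calls (52 and 155). None of the 55 changed sign in any of the 21 alternatives, which their non-overlapping groups nearly fixed in advance, and 54 lost the call in at least 1. The groups had 2 libraries each, the Drosha libraries held 1854243 and 2230566 counts, and Dgcr8 was above WT in its labelled knockout. A difference that did not pass is therefore not shown to be absent.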
